A study of Mus musculus with 16 samples.

Results

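Expression of 10 genes of the glucocorticoid pathway was followed in the brain of mice with a conditional deletion of Rai1. They were 8 genes known as targets of the hormone-bound receptor (Tsc22d3, Fkbp5, Sgk1, Pdk4, Cdkn1a, Plin4, Zbtb16 and Errfi1) and the 2 receptors Nr3c1 and Nr3c2. They were chosen by name from a table of 24176 genes, with earlier results of these data known. The p-values and counts below therefore describe these data and are no independent support. All 10 were among the 12348 genes that reached the level needed for testing, at least 1 RPKM in at least 2 libraries. RPKM is a read count divided by gene length and by the depth of the library. The 16 RNA sequencing libraries fell into 8 groups of 2. Cortex at 3 weeks and striatum at 3 and at 12 weeks came from B6/FVB F1 mice, and hypothalamus at 8 weeks from B6/129 F1 mice. Each of these 4 sets held wild-type libraries and libraries labelled knockout, with Rai1 deleted by Nestin-Cre in cortex, by Gad2-Cre in striatum and by Vglut2-Cre in hypothalamus. Nestin-Cre acts in neural progenitors, Gad2-Cre in inhibitory neurons and Vglut2-Cre in many excitatory neurons. In striatum and hypothalamus, other cells of the tissue therefore keep the gene. Strain, driver, region and age differed together between hypothalamus and the other sets. The labels do not say that the 2 libraries of a group came from separate animals, so the p-values rest on a spread among libraries that may be technical.

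Glucocorticoids, the steroid hormones released by the adrenal gland under stress and through the day, enter cells and bind the glucocorticoid receptor, encoded by Nr3c1, or the mineralocorticoid receptor, encoded by Nr3c2. The bound receptor leaves a complex of heat shock proteins, moves to the nucleus and acts at DNA elements built of inverted copies of a short hexamer. In the brain the mineralocorticoid receptor binds the hormone more tightly, and several targets are known for high expression in glia and vessels.

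The promoter windows of RefSeq, in build GRCm38.p6, were searched for this element because members that move together could share it. Each window ran from 250 bases before to 50 bases after a transcription start. Of the 10 genes, 8 were matched to 17 windows, and Nr3c1 and Zbtb16 were not matched. The full palindrome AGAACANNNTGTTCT, searched on both strands, lay in 1 window, one of 6 of Sgk1, from 189 to 175 bases upstream of the start. It lay in 3 of all 32851 windows of the same length (0.00913%). The hexamer AGAACA, searched on both strands and so also as TGTTCT, lay in 4 windows of 2 members, Sgk1 and Tsc22d3, and in 19% of all windows. A match of the palindrome also counts as matches of the hexamer. The Sgk1 window with the palindrome (chr10:21993640-21993939, plus strand) and the Tsc22d3 window with a hexamer (chrX:140600473-140600772, minus strand) are shown 5′ to 3′ with the matches in capitals.
Sgk1: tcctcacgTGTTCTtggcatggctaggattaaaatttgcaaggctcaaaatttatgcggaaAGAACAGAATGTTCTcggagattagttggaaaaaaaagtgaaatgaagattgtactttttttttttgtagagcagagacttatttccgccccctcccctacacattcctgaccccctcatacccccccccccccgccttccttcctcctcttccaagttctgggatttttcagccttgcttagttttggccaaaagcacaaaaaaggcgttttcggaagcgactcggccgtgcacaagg
Tsc22d3: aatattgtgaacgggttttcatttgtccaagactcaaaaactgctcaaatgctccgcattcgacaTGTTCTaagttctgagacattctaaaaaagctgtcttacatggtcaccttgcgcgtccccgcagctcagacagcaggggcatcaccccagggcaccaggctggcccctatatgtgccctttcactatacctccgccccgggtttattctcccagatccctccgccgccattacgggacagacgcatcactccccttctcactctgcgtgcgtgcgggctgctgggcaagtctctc
A match is only a description of these letters, and the windows do not cover distant elements. Among 25 other known targets with a window, 3 held the hexamer and 0 the palindrome.

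The targeted gene did not follow its labels. Rai1 was at 4.35 and 5.7 RPKM in the wild-type cortex libraries and at 4.28 and 3.03 in the cortex libraries labelled knockout. At 3 weeks the striatal values were 3.77 and 3.24 RPKM against 6.52 and 7.01. At 12 weeks the striatal values were 5.08 and 4.88 RPKM against 12.3 and 13.3. Those of hypothalamus were 3.68 and 3.99 RPKM against 8.47 and 6.52. Rai1 was therefore at higher values in the libraries labelled knockout in 3 of the 4 sets, and it passed the test in striatum at 12 weeks (log2 change 1.28, limma adjusted p = 0.0164). Which part of Rai1 was deleted was not stated in these sources, so this is no check of the deletion, and the genotype groups are named by their labels throughout. The regions did follow theirs. The summed level of spiny projection neuron markers was 787 to 1186 RPKM in striatum against 35.2 to 124 elsewhere, that of cortical excitatory markers 206 to 227 RPKM in cortex against 15 to 34.1, and that of hypothalamic markers 195 to 232 RPKM in hypothalamus against 1.66 to 6.29. The Pearson r between both libraries of a group, taken across genes (not independent points), was 0.971 to 0.991. Depth, estimated from the RPKM step of 1 read, was 21685450 to 35631908 reads per library and may be off by a factor of 2. By this estimate the striatal libraries held 31210093 to 35631908 reads at 3 weeks and 21785433 to 23505667 at 12 weeks. Depth thus differed together with age in striatum, and its part in the age changes was not tested.

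**Figure D1:**
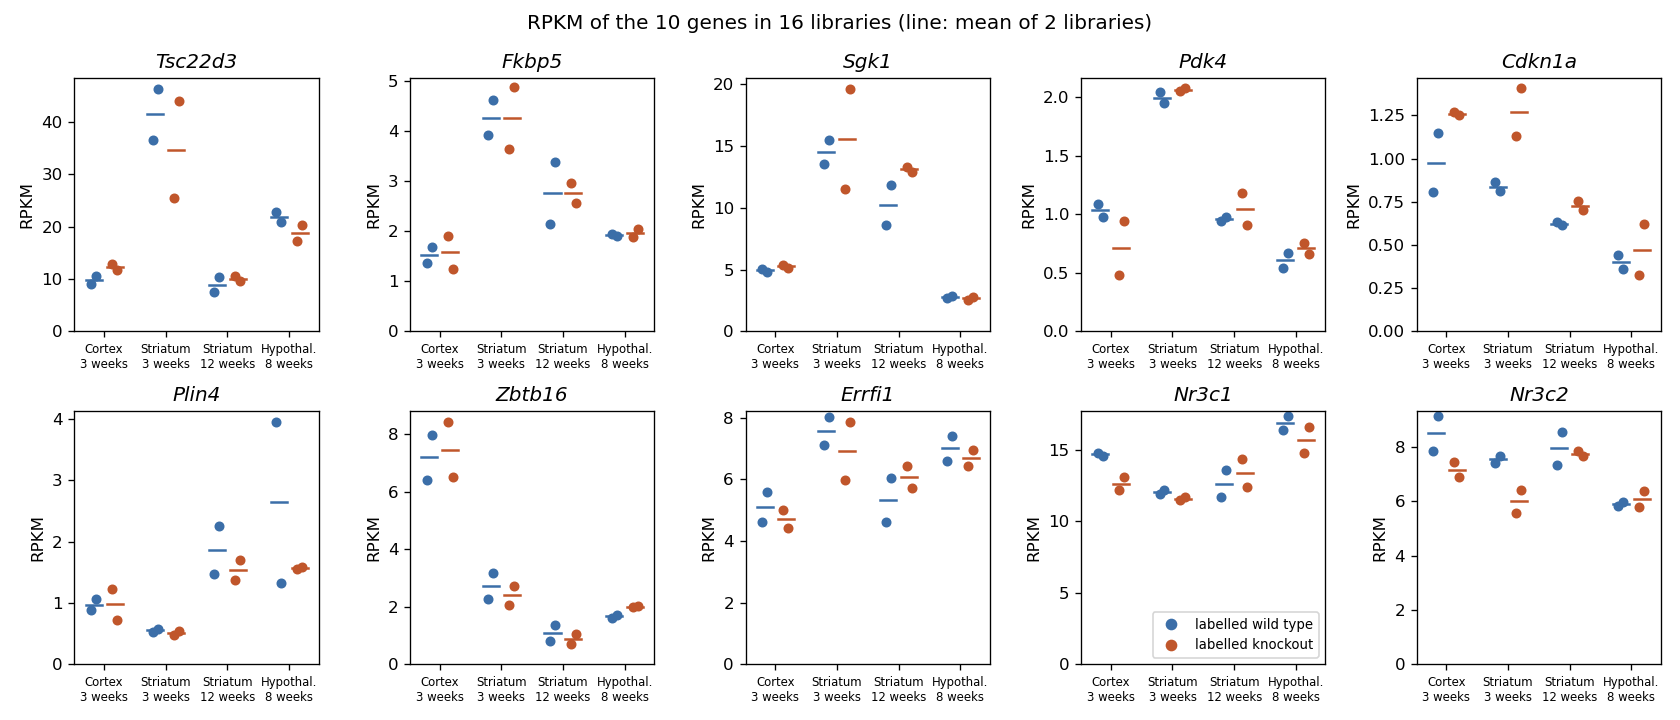
RPKM (y axis, from 0) of each of the 10 genes in the 16 libraries, by region and age (x axis) and label (blue, wild type; orange, knockout); points are libraries and lines the mean of 2. Tsc22d3 is highest in the 4 libraries of striatum at 3 weeks, 25.4 to 46.3 RPKM, and Zbtb16 in the 4 of cortex, 6.41 to 8.4 RPKM.

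Tsc22d3 encodes the glucocorticoid-induced leucine zipper, a protein that dampens inflammatory signalling, and it varied most between sets in absolute level. In striatum at 3 weeks the wild-type libraries held 36.5 and 46.3 RPKM and those labelled knockout 25.4 and 43.9. At 12 weeks the wild-type striatal libraries held 7.45 and 10.4 RPKM and those labelled knockout 10.5 and 9.58. The 4 young libraries lay above every other library of the series. Hypothalamus followed with 17.3 to 22.7 RPKM, and cortex with 9.05 to 12.9 RPKM overlapped striatum at 12 weeks.

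Fkbp5, a co-chaperone that lowers the affinity of the receptor for its hormone, had the same set at the top. Striatum at 3 weeks held 3.92 and 4.62 RPKM in wild type and 3.64 and 4.88 in the libraries labelled knockout, against 2.15, 3.39, 2.97 and 2.56 RPKM at 12 weeks. Hypothalamus held 1.89 to 2.05 RPKM and cortex 1.25 to 1.91. Sgk1, a kinase that regulates ion channels and transporters, was also a striatal gene at both ages, with 11.5 to 19.6 RPKM at 3 weeks and 8.61 to 13.3 at 12 weeks. It was at 4.83 to 5.37 RPKM in cortex and at 2.57 to 2.86 in hypothalamus. Sgk1 was the only one of the 10 genes with every hypothalamic library outside the range of all the others, below them in this case. The same separation held for 35.3% of the genes tested, 7.03% of them lower in hypothalamus and 28.3% higher.

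The remaining targets differed in where they were highest. Pdk4, a mitochondrial kinase that shuts down pyruvate dehydrogenase, was at 1.95 to 2.08 RPKM in striatum at 3 weeks and at 0.478 to 1.18 in the other libraries. Zbtb16, a zinc finger transcription factor, was a cortical gene with 6.41 to 8.4 RPKM, against 2.07 to 3.17 in striatum at 3 weeks, 1.62 to 2.02 in hypothalamus and 0.726 to 1.36 in striatum at 12 weeks. Plin4, a coat protein of lipid droplets, had its lowest values in striatum at 3 weeks, 0.482 to 0.584 RPKM. Cdkn1a, the cell cycle inhibitor p21, stayed at 0.325 to 1.41 RPKM in all 16 libraries, and Errfi1, a feedback inhibitor of the epidermal growth factor receptor, at 4.44 to 8.03. Neighbouring groups of Errfi1 could not be ordered, because each group overlapped the next in the order of means. Its cortical libraries, at 4.44 to 5.59 RPKM, lay below those of striatum at 3 weeks (5.99 to 8.03) and of hypothalamus (6.43 to 7.42).

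The receptors were expressed everywhere and varied little. Nr3c1 was at 11.5 to 17.4 RPKM in the 16 libraries. Its lowest set was striatum at 3 weeks, 11.5 to 12.2 RPKM, and its highest hypothalamus, 14.8 to 17.4. Nr3c2 was at 5.58 to 9.12 RPKM, lower than Nr3c1 in each group by the group means on this per-length scale. The highest mean of Nr3c2 was in wild-type cortex, and each of the first 4 groups overlapped the next in the order. Between cortex and striatum at 3 weeks, 8 of the 10 genes did not overlap, 5 higher in striatum (Tsc22d3, Fkbp5, Sgk1, Pdk4 and Errfi1) and 3 lower (Plin4, Zbtb16 and Nr3c1). The same held for 39.8% of all genes tested, 16.7% higher in striatum and 23.1% lower.

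Between 3 and 12 weeks in striatum, 6 of the 10 genes fell, 1 rose and 3 did not pass the test (limma, adjusted p threshold 0.05). Of all genes tested, 35.6% were called, 25.1% lower and 10.5% higher. The median log2 change of the 10 genes was -0.37, beside -0.13 for all genes tested. The libraries of the 2 ages did not overlap for 6 of the 10 genes, 5 lower at 12 weeks and Plin4 higher, beside 29% of all genes (19.2% lower and 9.84% higher). Each log2 change was taken after adding 0.5 to the RPKM, which understates changes of low genes, and is the mean of both genotype labels. In bulk tissue, fewer cells of a type and less RNA per cell cannot be told apart.

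Tsc22d3 fell by 1.93 ± 0.16 (SE, 4 against 4 libraries), from a mean of 38 to 9.47 RPKM, a 4.02-fold lower level (limma adjusted p = 1.39e-06). Zbtb16 fell by 1.05 ± 0.15, from 2.56 to 0.982 RPKM, 2.61-fold (limma adjusted p = 0.00012). Pdk4 fell by 0.76 ± 0.12, from 2.03 to 1 RPKM (limma adjusted p = 0.000285). For these 3 genes the libraries of both ages did not overlap, and they were lower in 4 of 4 libraries at 12 weeks.

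Fkbp5 fell by 0.55 ± 0.14, from 4.27 to 2.77 RPKM (limma adjusted p = 0.00853). Cdkn1a fell by 0.39 ± 0.11, from 1.06 to 0.676 RPKM (limma adjusted p = 0.0175). Its call was lost without replicate 2 of the libraries labelled knockout at 3 weeks (limma adjusted p = 0.0735) or at 12 weeks (0.0571). Errfi1 fell by 0.32 ± 0.12 (limma adjusted p = 0.0457), with libraries of both ages overlapping. It was -0.17 with median-ratio scaling, and the call was lost without the filter on low values (limma adjusted p = 0.0629) and with only the striatal groups in the fit (0.0998). The Errfi1 call was lost in 6 of the 8 refits that left out a library of striatum (adjusted p up to 0.179), all except those without replicate 1 of the 3-week libraries labelled knockout and without replicate 2 of the 12-week wild type.

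Plin4 rose by 1.07 ± 0.22 on the log2 scale, from 0.534 to 1.7 RPKM, a 3.19-fold higher level (limma adjusted p = 0.00186), and was higher in 4 of 4 libraries. Sgk1, at a mean of 15 RPKM at 3 weeks and 11.7 at 12 weeks, did not pass (log2 change -0.34 ± 0.14, limma adjusted p = 0.0764). It passed without replicate 1 of the 3-week libraries labelled knockout (-0.53, adjusted p = 0.00327) and without replicate 2 of the 12-week wild type (-0.45, adjusted p = 0.0304). The receptors did not pass: Nr3c1 was at means of 11.8 and 13 RPKM (0.13 ± 0.09, limma adjusted p = 0.292) and Nr3c2 at 6.77 and 7.84 (0.21 ± 0.09, limma adjusted p = 0.0939).

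Scaling mattered for the receptors. Summed RPKM was 94464 to 126093 in the 3-week and 82332 to 101788 in the 12-week libraries, and median-ratio scaling of the libraries moved the median of all genes by 0.13. After it, 2701 genes were called higher and 2682 lower, in place of 1300 and 3102. Nr3c1 (0.29, limma adjusted p = 0.0141) and Nr3c2 (0.36, limma adjusted p = 0.000609) then passed as higher at 12 weeks. The 6 falls and the rise of Plin4 were called under both scalings.

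**Figure D2:**
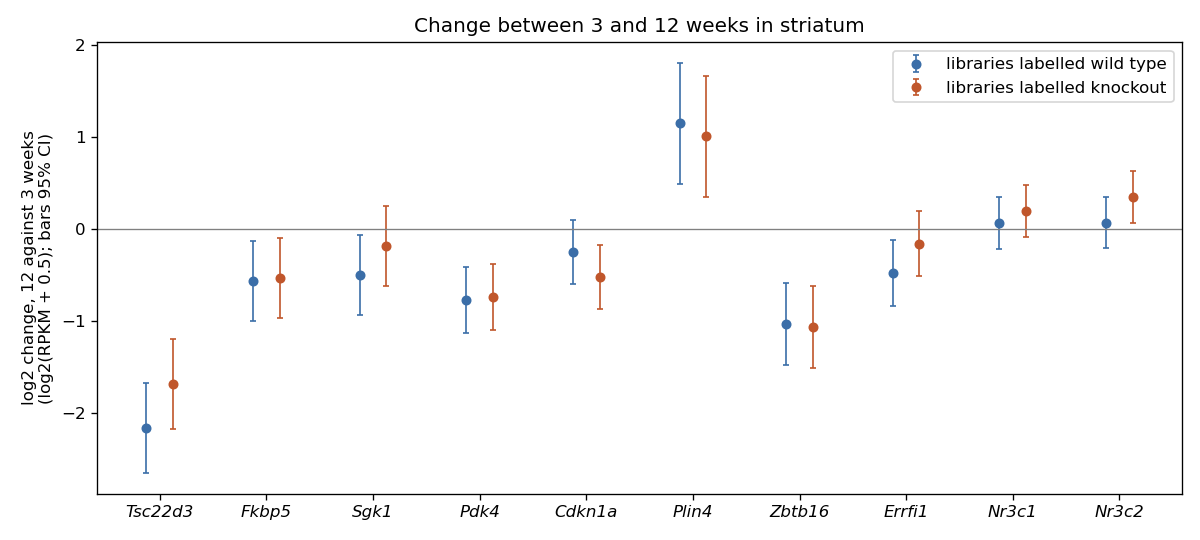
Log2 change from 3 to 12 weeks in striatum (y axis, on the log2(RPKM + 0.5) scale) of the 10 genes (x axis), in libraries labelled wild type (blue) and knockout (orange); bars are 95% confidence intervals. Tsc22d3 lies lowest in both, at -2.16 and -1.69, and Plin4 highest, at 1.14 and 1.01.

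The age change was also fitted within each genotype label. In wild type, 5 of the 10 genes fell and 1 rose, where 31.5% of all genes tested were called (24.4% lower and 7.16% higher). Those that fell were Tsc22d3, Zbtb16, Pdk4, Errfi1 and Fkbp5, and Plin4 rose. The calls of Fkbp5, Errfi1 and Plin4 each held in only 1 of the 4 refits without a wild-type striatal library. For Fkbp5 and Errfi1 the refit that kept the call was the one without replicate 2 at 12 weeks, with adjusted p of 0.0647, 0.25 and 0.408 and of 0.0626, 0.228 and 0.319 in the other refits (without replicate 1 at 3 weeks, replicate 2 at 3 weeks and replicate 1 at 12 weeks). Both calls were also lost after median-ratio scaling (limma adjusted p = 0.0685 and 0.096) without the filter on low values (0.0878 and 0.0612) and with only the groups compared (0.0761 and 0.124), and that of Fkbp5 with a pseudocount of 0.1 (0.0532). With median-ratio scaling Nr3c1 (0.35, limma adjusted p = 0.0358) and Nr3c2 (0.35, 0.0108) passed as higher at 12 weeks in wild type. For Plin4 it was the one without replicate 1 at 12 weeks, with adjusted p of 0.0545 and 0.0683 without replicates 1 and 2 at 3 weeks and 0.0745 without replicate 2 at 12 weeks.

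In the libraries labelled knockout, 3 of the 10 fell and 1 rose, where 11.8% of all genes tested were called (6.8% lower and 4.98% higher). Tsc22d3 fell by 1.69 ± 0.23 (limma adjusted p = 0.000302) and held in each of the 4 refits without a library. Zbtb16 fell by 1.07 ± 0.21 (limma adjusted p = 0.00429), but not without replicate 1 at 12 weeks (0.0644). Pdk4 fell by 0.74 ± 0.17 (limma adjusted p = 0.0105), but not without replicate 2 at 3 weeks (0.0561) or at 12 weeks (0.109). Plin4 rose by 1.01 ± 0.31 (limma adjusted p = 0.0484), and not in the 4 refits without a library (0.13 to 0.226), with a pseudocount of 1 (0.0752) or without the filter on low values (0.105). After median-ratio scaling 7 of the 10 were called, with Fkbp5 (-0.51, limma adjusted p = 0.0122), Cdkn1a (-0.52, 0.0274) and Nr3c2 (0.38, 0.0114) added. The difference between the genotype labels in the age change was tested directly, and 0 of the 10 genes passed, beside 0% of all genes. An unadjusted p under 0.05 was found for 0 of the 10 and for 8.88% of all genes. Tsc22d3 had the largest such difference among the 10, 0.48 ± 0.32 (limma adjusted p = 0.553). It was 0.09 without replicate 1 and 0.87 without replicate 2 of the 3-week libraries labelled knockout, the ends of the range over libraries left out, and 0.22 with median-ratio scaling.

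Among 30 other known targets of the receptor, 25 were tested and 16 fell between 3 and 12 weeks, with 0 higher and a median log2 change of -0.66, beside 25.1% of all genes lower and 10.5% higher. Gjb6, a gap junction protein of astrocytes, fell by 1.63 ± 0.13, from 15.7 to 4.72 RPKM (limma adjusted p = 1.19e-06). Fam107a, an actin-binding stress-response protein, fell from 92.3 to 38.1 RPKM and Mfsd2a, a lipid transporter of the blood-brain barrier, from 4.6 to 1.68. Mertk, a receptor for engulfment of cell debris, fell from 6.38 to 3.18 RPKM, the syndecan Sdc4 from 31.6 to 14.6 and the small GTPase Rhob from 76 to 39.2. In the refits without 1 library 13 to 18 were called. Within wild type 16 of these fell and within the libraries labelled knockout 6, with medians of -0.92 and -0.42, beside 24.4% and 6.8% of all genes. Their difference by label was called for 0 of 25 (limma; 2 at an unadjusted p under 0.05, beside 8.88% of all genes).

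Of 18 chaperones and cofactors that hold or assist the receptor, 4 rose and 4 fell, beside 10.5% of all genes higher and 25.1% lower. Within wild type 5 rose and 4 fell, beside 7.16% of all genes higher and 24.4% lower. None of the 18 passed in the libraries labelled knockout (limma), where 11.8% of all genes were called. For the mean of both labels, the heat shock proteins Dnajb1, from 15.3 to 7.98 RPKM, and Hspa8, from 619 to 327 RPKM, fell. So did Fkbp4, a co-chaperone that opposes Fkbp5, from 16.2 to 9.74 RPKM. Hsp90aa1, the chaperone that holds the receptor ready for hormone, rose from 53.4 to 77.8 RPKM, with the coactivator Ncoa3 from 2.72 to 3.39 and the corepressor Ncor1 from 6.45 to 7.94.

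Of the 4 tested genes that set how much steroid reaches the receptor, 2 fell and 1 rose, beside 25.1% of all genes lower and 10.5% higher. Srd5a1, a reductase that converts steroids to other forms, fell by 2.1 ± 0.12, from 6.67 to 1.18 RPKM (limma adjusted p = 2.97e-08). Hsd11b1, which regenerates active hormone inside cells, was at 2.5, 2.72, 1.24 and 2.46 RPKM at 3 weeks and at 0.602, 0.63, 0.856 and 1.12 at 12 weeks, and it fell (limma adjusted p = 0.000254). Abcb1a, an efflux pump of the blood-brain barrier, rose from 0.983 to 1.45 RPKM. Srd5a1 passed within each label. Hsd11b1 passed within wild type (limma adjusted p = 0.000464) but not in the libraries labelled knockout (0.0977). Abcb1a passed in the libraries labelled knockout (limma adjusted p = 0.0413) but not within wild type (0.145). Of 14 clock genes 5 rose and 0 fell, beside 35.6% of all genes called, 10.5% higher and 25.1% lower. Among the 5 were Bhlhe40, from 4.34 to 7.56 RPKM, Per3 from 3.1 to 4.3 and Dbp from 11.9 to 17.3. Within wild type only Per3 passed (limma adjusted p = 0.0231), with Bhlhe40 at 0.0972 and Dbp at 0.223. In the libraries labelled knockout 3 passed, Bhlhe40 and Dbp among them. For the mean of both labels, none of 6 stress axis peptides and receptors and none of 10 immediate early genes passed. At an unadjusted p under 0.05 were 0 and 2 of them (limma), beside 46.2% of all genes. Within wild type 2 immediate early genes passed as lower, Arc (-0.96, limma adjusted p = 0.0492) and Dusp6 (-0.73, 0.0332). In the libraries labelled knockout 0 of the 10 passed.

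**Figure D3:**
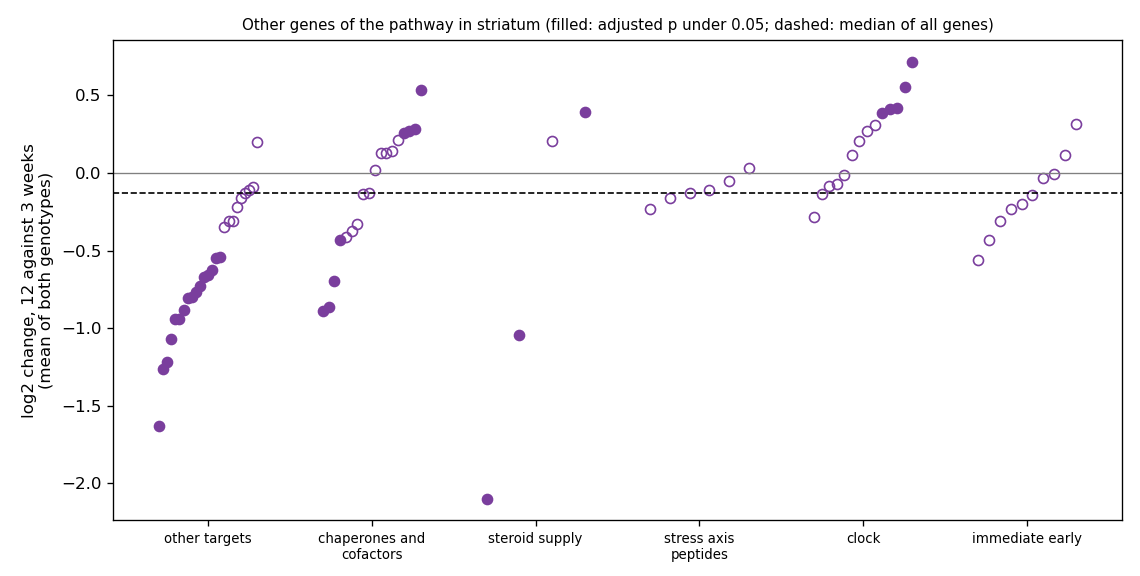
Log2 change from 3 to 12 weeks in striatum (y axis, mean of both genotype labels, on the log2(RPKM + 0.5) scale) of the tested genes of 6 lists (x axis, genes sorted within a list); filled points passed the adjusted p threshold of 0.05 and the dashed line is the median of all genes, -0.13. Among the other targets 16 filled points lie below 0 and 0 above, and among the clock genes 5 lie above.

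Markers of glia moved with the same comparison, where 25.1% of all genes tested were called lower and 10.5% higher. All 15 myelin genes fell, with a median log2 change of -2.05, and their summed level was 2861 to 3799 RPKM in the 4 libraries of striatum at 3 weeks and 578 to 752 at 12 weeks, with none at 0. It was 781 to 1397 RPKM in cortex and 907 to 1096 in hypothalamus. Mog fell from 65.6 to 9.27 RPKM, Mal from 259 to 40.9 and Mobp from 147 to 22.1.

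Of 8 genes of oligodendrocyte precursors 8 fell, led by Gpr17, Enpp6 and Olig2, with summed levels of 101 to 132 RPKM at 3 weeks and 27.1 to 34.1 at 12 weeks. Of 10 astrocyte genes 8 fell, led by Gfap from 25.6 to 5.75 RPKM, Aqp4 from 25.4 to 11 and S100b from 55.3 to 25.9, with summed levels of 521 to 633 and 322 to 372 RPKM. Of 9 microglial genes tested 7 fell, with summed levels of 73 to 137 and 63.6 to 73.7 RPKM. Within wild type 8 of the 9 microglial genes fell, and in the libraries labelled knockout 0 passed (limma). These counts were 7 and 4 of 10 for astrocyte genes, 7 and 7 of 8 for precursor genes and 15 and 14 of 15 for myelin genes. Of all genes tested, 24.4% and 6.8% were called lower within these labels. No gene of these lists was at 0 in either age. The part of these cell types in the changes of Tsc22d3, Fkbp5 and the other targets was not tested.

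**Figure D4:**
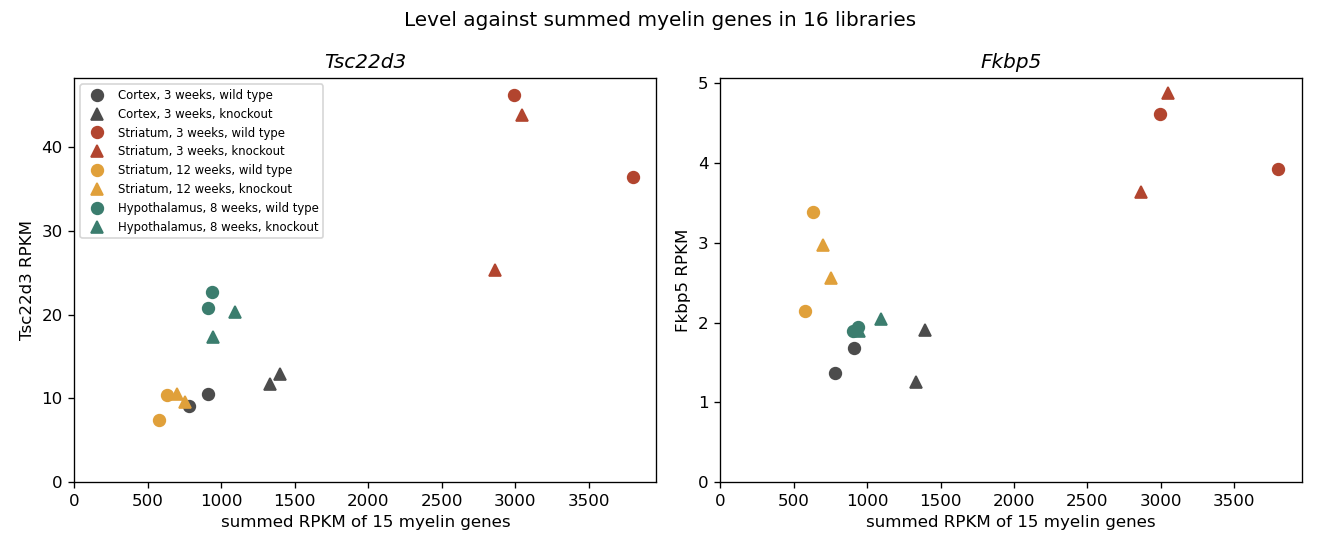
Level in RPKM (y axes, from 0) of Tsc22d3 (left) and Fkbp5 (right) against the summed RPKM of 15 myelin genes (x axes) in the 16 libraries; colours are sets, circles libraries labelled wild type and triangles those labelled knockout. The 4 libraries of striatum at 3 weeks lie at the right, at 2861 to 3799, and the hypothalamic libraries lie above those of cortex for Tsc22d3 at sums of 907 to 1096 against 781 to 1397.

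By genotype label, none of the 10 genes passed in any of the 4 sets. In cortex 0 of 10 passed and 1 had an unadjusted p under 0.05 (limma), where 0.0405% of all genes were called and 6.26% had such a p. The figures for striatum at 3 weeks were 0 and 2 of 10, beside 0.0324% and 7.55% of all genes. In striatum at 12 weeks they were 0 and 0 of 10, beside 0.0405% and 4.4%, and in hypothalamus 0 and 0 of 10, beside 0.0081% and 1.76%. For the mean of the 4 sets they were 0 and 1 of 10, beside 0.373% and 5.2%. None of the 892 refits of these values under other settings, including the difference between ages, reached an adjusted p under 0.05.

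The 95% intervals show what sizes the libraries leave possible. For Tsc22d3 the log2 change of libraries labelled knockout was 0.32 in cortex (-0.175 to 0.805) and -0.21 in hypothalamus (-0.7 to 0.279). In striatum it was -0.3 at the younger age (-0.787 to 0.192) and 0.18 at the older (-0.311 to 0.669). Fkbp5 had estimates of 0.02 in cortex, -0.01 and 0.02 in striatum at the younger and older age and 0.02 in hypothalamus, and its intervals lay within -0.444 and 0.456. The Fkbp5 estimate for striatum at 3 weeks was 0.12 and that at 12 weeks -0.07 after median-ratio scaling.

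The most negative and most positive estimates were not those of the same pair of genes in every set. In cortex they were Pdk4 at -0.37 ± 0.17 (limma adjusted p = 0.773), with 1.09 and 0.977 RPKM in wild type against 0.478 and 0.939, and Tsc22d3. In striatum at 3 weeks they were Nr3c2 at -0.31 ± 0.13 and Cdkn1a at 0.4 ± 0.16 (limma adjusted p = 0.619 for both). In striatum at 12 weeks they were Plin4 at -0.2 ± 0.31 and Sgk1 at 0.36 ± 0.2 (limma adjusted p = 0.989 for both), with Sgk1 at 8.61 and 11.8 RPKM in wild type and 13.3 and 12.9 in the libraries labelled knockout. In hypothalamus they were Plin4 at -0.47 ± 0.31 and Zbtb16 at 0.21 ± 0.21. The Plin4 estimate rested on 1 wild-type library at 3.95 RPKM beside 1.33, 1.55 and 1.58, and was 0.17 without it.

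**Figure D5:**
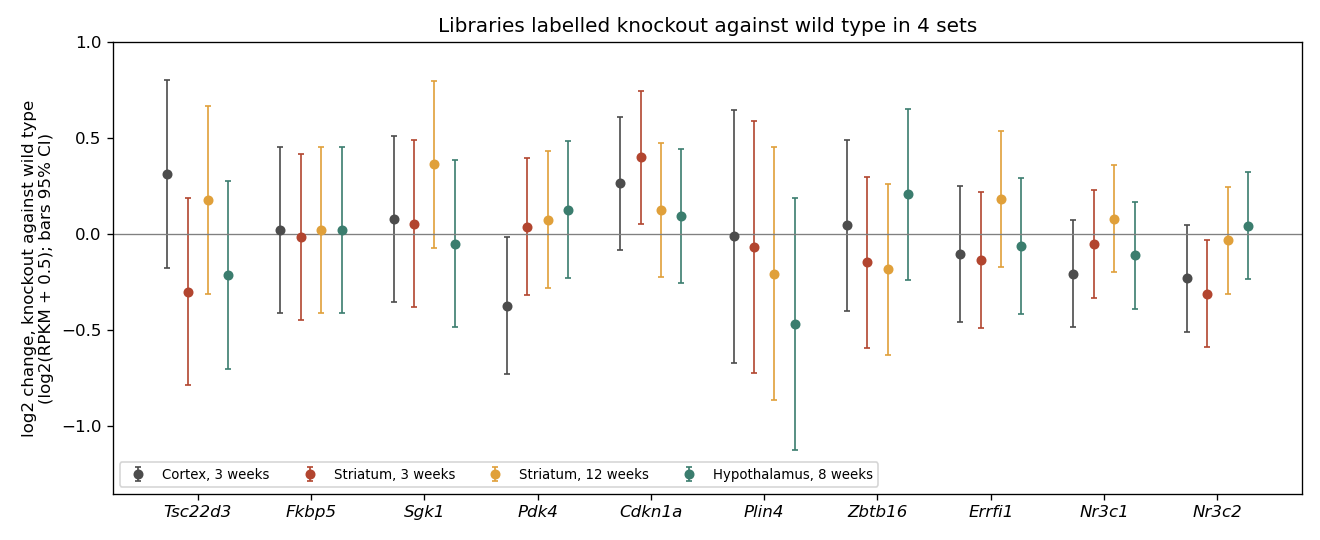
Log2 change of libraries labelled knockout against wild type (y axis, on the log2(RPKM + 0.5) scale) for the 10 genes (x axis) in 4 sets (colours); bars are 95% confidence intervals. Estimates lie between -0.47 and 0.4, and 0 of 10 genes passed the adjusted threshold in each set.

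Cdkn1a was higher in both libraries labelled knockout than in both wild-type libraries in cortex, in striatum at 3 weeks and in striatum at 12 weeks. The wild-type cortex libraries held 0.805 and 1.15 RPKM against 1.27 and 1.25. The striatal ones held 0.866 and 0.811 against 1.13 and 1.41 RPKM when young, and 0.633 and 0.613 against 0.755 and 0.702 when older. In hypothalamus, at 0.443 and 0.36 against 0.325 and 0.622 RPKM, the libraries overlapped. The mean over the 4 sets was 0.22 ± 0.08 on the log2 scale and did not pass (limma adjusted p = 0.71, unadjusted p = 0.0161). At these levels Cdkn1a had about 26 to 157 reads per library by the depth estimate.

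The libraries of the 2 labels did not overlap for 6 of the 10 genes in cortex (30.9% of all genes tested; 9.3% higher in those labelled knockout and 21.6% lower) and for 4 in striatum at 3 weeks (34.2%; 10.3% and 23.9%). They did not overlap for 2 in striatum at 12 weeks (28%; 19.9% and 8.16%) and 2 in hypothalamus (34.2%; 9.65% and 24.6%). Nr3c1 and Nr3c2 were lower in both libraries labelled knockout in cortex, at 12.2 and 13.1 against 14.8 and 14.6 RPKM and at 7.43 and 6.89 against 7.86 and 9.12. In striatum at 3 weeks both were also lower. Nr3c1 was at 11.5 and 11.7 against 11.9 and 12.2 RPKM, and Nr3c2 at 5.58 and 6.42 against 7.4 and 7.67. The log2 change of Nr3c1 there was -0.05, less negative than the median of all genes tested, -0.13. That of Nr3c2 was -0.31, and -0.33 to -0.17 under the other settings. Neither receptor separated at 12 weeks or in hypothalamus. In cortex the summed myelin genes moved with the label, at 781 and 911 RPKM in wild type and 1331 and 1397 in the libraries labelled knockout, with 10 of 15 at an unadjusted p under 0.05. There 9 of 9 spiny projection neuron genes had lower estimates in the libraries labelled knockout, 5 of them at such a p. Of all genes tested in cortex, 6.26% had such a p (limma), and their median change was -0.02.

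Markers of other cells also moved with the label in striatum. At 3 weeks 9 of 9 microglial genes had lower estimates in the libraries labelled knockout (median -0.54, 5 at an unadjusted p under 0.05). The summed microglial level was 137 and 131 RPKM in wild type against 73 and 116, so replicate 1 labelled knockout lay lowest. Cortical excitatory neuron genes had a median of 0.74 by label at 3 weeks, with 5 of 8 at such a p, and of -0.83 at 12 weeks, with 6 of 8. Their summed level was 21.4 and 29.2 RPKM in wild type against 33.2 and 34.1 at the younger age, and 16 and 27.8 against 15.5 and 15 at the older. None of these marker genes passed the adjusted threshold by label (limma). Of all genes tested, 7.55% at 3 weeks and 4.4% at 12 weeks had an unadjusted p under 0.05, with medians of -0.13 and 0.08. The part of these cells in the label differences of Nr3c1, Nr3c2, Cdkn1a, Sgk1 and the other members was not tested.

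Of the 25 other targets tested, 0 passed in each of the 4 sets (limma). At an unadjusted p under 0.05 were 3 of them in cortex, 2 and 1 in striatum at the younger and older age and 0 in hypothalamus. In the same order, 6.26%, 7.55%, 4.4% and 1.76% of all genes had such a p, and 0.0405%, 0.0324%, 0.0405% and 0.0081% were called.

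The genes whose pattern over the 16 libraries was nearest to each target were taken by Pearson r of log2(RPKM + 0.5). The libraries share region and age within 8 groups, so these r describe the differences between sets and have no test. Tsc22d3 was nearest to Tspan31 (r = 0.983), Sept2 and Mtmr2, and Fkbp5 to Carhsp1 (r = 0.975), Syndig1 and Gabrg3. Sgk1 was nearest to Hpca (r = 0.992), a neuronal calcium sensor, then to Trnp1 and Smpd3. Zbtb16 was nearest to Slc25a22 (r = 0.979), Brinp2 and Prickle1, and Errfi1 to Pdxk (r = 0.969), Gabbr1 and Med17. Pdk4 was nearest to Mtf1 (r = 0.93), Tcfl5 and Mien1, Cdkn1a to 4930429B21Rik (r = 0.919), Pag1 and Fscn1, and Plin4 to Myef2 (r = 0.881), Fancc and Gm5148. The targets did not share one pattern: r was 0.8 between Fkbp5 and Sgk1, 0.81 between Tsc22d3 and Errfi1, 0.01 between Tsc22d3 and Zbtb16 and -0.77 between Pdk4 and Plin4.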

How the data were processed

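The values analysed are RPKM per gene and library, as deposited by the authors for 16 libraries. The tools named in the submitters' processing notes are TopHat2, cutadapt 1.6 and CASAVA 1.8.2, and the build is mm9. How reads were counted, whether strand was used and the RPKM denominator were not stated there, so overlapping genes are uncertain. limma 3.58.1 in R 4.3.3 was fitted to log2(RPKM + 0.5) with a mean per group over all 16 libraries and a variance trend, after a filter of 1 RPKM in 2 or more libraries. P-values were adjusted by Benjamini-Hochberg over all 12348 genes within each of 9 comparisons, and the fit was tested on simulated data. Alternatives were other pseudocounts, filters and scaling, no variance trend, a replicate block, only the groups compared, and leaving out each library.

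The members, the gene lists and the tests were chosen with earlier results of these data known. Named genes were the 10 members, Rai1, up to 6 called genes per pathway list, 3 nearest genes per target and up to 3 called genes per cell type list.

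Depth was estimated from RPKM steps of single-exon genes, with lengths from GENCODE vM21, which is another build. This was the third of 3 scoring rules tried on these data, settled on with an earlier estimate of the depth known. The first rule, the largest share of whole reads, gave about 2 times the depth in 12 libraries, with a larger share of whole reads there (in the other 4 that depth lay beyond the range searched). The second chose nearly the same depth as the rule used. Under the rule used, 50 to 59.1% of values lay within 0.05 of a whole read, so whole reads were not recovered and no count test was run.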

Additional observations from a re-analysis of the deposited data

Results flagged for a closer look

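For Tsc22d3, both libraries labelled knockout lay above both wild-type libraries in cortex (log2 change 0.32) and below both in hypothalamus (-0.21). For Pdk4, both libraries labelled knockout lay below both wild-type libraries in cortex (-0.37) and above both in striatum at 3 weeks (0.04). The striatal Pdk4 libraries lay close together, at 2.04 and 1.95 RPKM in wild type against 2.05 and 2.08. Tsc22d3 and Pdk4 were picked out because every library of a set moved one way and every library of another set the opposite way. The labels did not overlap for 30.9% of all genes tested in cortex and for 34.2% each in striatum at 3 weeks and hypothalamus. How many of all genes separated in opposite directions was not counted. The differences between the sets were not tested, and none of the 4 changes passed within its set.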

How the results depend on the processing

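The number of libraries, 2 per group, and the few reads behind Cdkn1a and Pdk4 limit these data, and the depth behind them is approximate. Where a value below differs from the one reported, the cause was not tested unless the setting itself tests fewer genes or libraries.

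Genes called in cortex by label (5 as reported) were 8 with a pseudocount of 1, 34 without a filter, 36 with median-ratio scaling and 0 with only the groups compared. In striatum they were 0 with only the groups compared at 3 weeks (4 as reported), and at 12 weeks (5 as reported) 10 with median-ratio scaling and 13 with only the groups compared. In hypothalamus (1 as reported) they were 0 with a pseudocount of 0.1, 0 with a filter of 3 RPKM, 0 with median-ratio scaling, 4 without a filter and 10 with only the groups compared. For age in the libraries labelled knockout (1455 as reported) they were 2561 with median-ratio scaling and 770 with only the groups compared, and for the difference between ages 2 without a filter (0 as reported). With a filter of 3 RPKM, which removes low members from the test, 4 members were called for age and 2 in the libraries labelled knockout. In the latter 7 were called with median-ratio scaling.

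Across genes, deviations of same-numbered libraries correlated at -0.34 in cortex, 0.44 and -0.22 in striatum at 3 and 12 weeks and 0.15 in hypothalamus. Between ages they correlated at 0.37 in wild type and -0.23 in knockout. With 2 libraries per group, these values cannot show whether the replicate numbers in the labels pair the libraries. With the replicate number as a block, genes called by label were 3 in cortex, 1 and 1 in striatum, 0 in hypothalamus and 12 for the mean of the 4 sets (46 as reported). Members called by age were then 7, 6 in wild type and 3 in the libraries labelled knockout, where Plin4 was lost (adjusted p = 0.0687). With crossed numbers, chosen after seeing the data, 42 genes were called in cortex and 94 for the mean.

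Without 1 library, genes called ranged from 2 to 8 in cortex, 0 to 2 and 1 to 7 in striatum at 3 and 12 weeks, 0 to 1 in hypothalamus and 19 to 55 for the mean, with 0 to 0 members. By age they ranged from 3233 to 4902 with 5 to 8 members, 1495 to 4285 with 3 to 6 in wild type and 552 to 1315 with 2 to 3 in the libraries labelled knockout, and from 0 to 11 for the difference between ages. Tsc22d3 by age stayed between -2.12 and -1.73 and passed in each.

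Of 60 member values by label, 35 changed sign in at least 1 refit. Fkbp5 was 0.12 at 3 and -0.07 at 12 weeks in striatum with median-ratio scaling. Without 1 library, Fkbp5 ranged from -0.21 to 0.25 in cortex, -0.20 to 0.18 and -0.25 to 0.30 in striatum at 3 and 12 weeks and -0.02 to 0.07 in hypothalamus. Tsc22d3 ranged from -0.69 to 0.09 and -0.05 to 0.40 in striatum at 3 and 12 weeks. Plin4 ranged from -0.45 to 0.04 in striatum at 12 weeks and -1.11 to 0.17 in hypothalamus, where Cdkn1a ranged from -0.13 to 0.32. By age in wild type, Nr3c1 and Nr3c2 each ranged from -0.04 to 0.17, and in the libraries labelled knockout Sgk1 ranged from -0.56 to 0.18 and Errfi1 from -0.34 to 0.02.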

Other observations

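In striatum, genes of cortical excitatory neurons changed with age in opposite directions by label, which their mean (1 of 8 lower, Lamp5) does not show. In the libraries labelled knockout 5 of 8 fell from 3 to 12 weeks (limma, median log2 change -1.05), among them Slc17a7, a vesicular glutamate transporter, at 12 and 7.13 RPKM at 3 weeks and 1.49 and 1.36 at 12 weeks. In wild type the median was 0.49, with Tbr1 higher, at 0.0918 and 0.344 against 0.444 and 1.1 RPKM, and Lamp5 lower. The wild-type libraries of each age differed widely in Slc17a7, at 1.36 and 4.85 RPKM and at 2.68 and 9.58. The difference between the labels had a median of -1.54, with 0 of 8 passing (limma) and 6 of 8 at an unadjusted p under 0.05, beside 8.88% of all genes. Slc17a7 and Tbr1 were named after their values were seen.

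For the mean of both labels, other cell type lists changed as follows between 3 and 12 weeks, beside 25.1% of all genes lower and 10.5% higher. Of 9 endothelial genes tested, Flt1 rose and Ly6c1 and Esam fell, with summed levels of 24.3 to 37.8 RPKM at 3 weeks and 21 to 27.3 at 12 weeks. Of 5 pericyte genes 1 fell (21.6 to 32.4 and 19.3 to 23.3 RPKM), of 5 choroid plexus genes 2 (5.9 to 9.15 and 3.54 to 5.93), and of 4 meningeal genes 3 (median -0.46, 3.65 to 5.87 and 2.16 to 2.69 RPKM). In the blood list Alas2, the only gene tested, fell by 0.66, and 4 globin genes were listed at 0 in all libraries. Of 9 spiny projection neuron genes 2 rose (787 to 1186 and 914 to 1110 RPKM), and of 8 hypothalamic genes 1 fell. Within wild type 3 endothelial, 1 pericyte, 1 choroid plexus and 3 meningeal genes fell (limma). These counts were 1, 1, 0 and 1 in the libraries labelled knockout. Of all genes tested, 24.4% and 6.8% were called lower within these labels.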
